A study of Mus musculus with 39 samples.

Results

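Gene expression of brown fat stromal vascular cells was followed from the first day to the last week of a low fat control diet. The account covers the 10 arrays of mice on the low fat diet (LFC), chosen by their diet and time labels out of the 39 arrays of the series. The 5 late arrays, taken at Weeks 3, 9, 12, 15 and 18, were set against the 5 early arrays, of Day 1, Day 6, Day 10, Day 14 and Week 0. All came from C57BL/6J mice, a common inbred laboratory strain, put on the diet at weaning at 3 to 4 weeks of age, so time on the diet is also growth and ageing of the mice. The low fat diet gave 10% of its calories as fat. Each time label had 1 LFC array. The labels name 5 animals killed per diet at each interval, and whether their RNA was pooled is not given in the sources used here. The study's day numbers place the weeks after Day 14, so Day 14 and Week 0 are taken as the same day on the diet. The 10 arrays of mice on the high fat and high sucrose diet (HFC, 60% of calories as fat) at the same time labels are used for values side by side.

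Brown fat burns fuel to make heat through the uncoupling protein Ucp1, which lets protons return across the inner mitochondrial membrane without making ATP. The stromal vascular fraction is what is left of the tissue when the fat cells are removed, and holds blood vessel cells, fibroblasts, fat cell progenitors, macrophages and other leukocytes. Around weaning the tissue of a mouse still grows, and dividing cells express a shared programme of cyclins, spindle proteins and replication enzymes. The labels call the material infiltrating macrophages.

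The arrays differed in ways the time labels do not give. Levels are log2 signals relative to the 75th percentile of the array, called log2 level below. The 75th percentile ranged from 24.1 intensity units (Week 9) to 1289 (Week 12), and 32.3% to 74.4% of probes were well above background. Each LFC array had a scan date of its own. All 5 late arrays were scanned before the arrays of Day 1 to Day 14, so scan date and time on the diet cannot be told apart for those 9 arrays. The Week 0 array was scanned between those of Week 9 and Week 3. The arrays of Week 12 and Week 18 stood apart, with correlations over probes of 0.68 to 0.84 in the 17 pairs that hold either, against 0.82 to 0.95 in the other 28 pairs. Both carry BA in the title, as does the Day 6 array in the form BAT, which did not stand apart. In the deposited table the Day 14 columns of the diets are exchanged relative to the scanner files. List medians that depend on Week 12 and Week 18 are given below with and without them. The Day 14 scanner file labelled HFC was also put in place of that labelled LFC. Among the named genes and list members, 30 had late levels all above or all below the early ones. Of these, 14 stayed so. All 30 kept their direction, which the exchange of 1 array could hardly turn. The 16 that then overlapped were Fabp3, Efna1, Gnb4, Pxdn, Ppic, Col1a1, Mmp11, Hoxb7, Ier2 and 7 cell cycle genes.

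Cell type markers varied widely from array to array, and Col1a1 of fibroblasts was the 1 marker for which all late levels lay below the early ones. Its Day 1 spot was left out as an outlier, so that array did not enter. The 5 brown fat cell and 3 muscle markers had higher late means and both endothelial markers lower ones. The macrophage markers Adgre1, Cd68, Csf1r and Mrc1 were well above background on all 10 arrays, C1qa on 9 and Itgam on 7. So were the brown fat cell genes Ucp1, Cidea, Cox8b and Ppargc1a and the fat cell genes Adipoq, Plin1, Fabp4 and Cfd, on all 10. The log2 of the summed signals of the 6 macrophage markers was 2.89 to 4.04 on the early arrays and 2.16 to 4.15 on the late arrays. The brightest markers weigh most in such a sum. The Day 10 array had the lining gene Msln at 3.46, against -7.30 to -0.68 elsewhere, and was the lowest for Ucp1, at -3.16 against 2.83 to 7.33. Upk3b and Wt1, markers of the lining of abdominal organs, were well above background on that array alone. The log2 of the summed signals of the neutrophil markers S100a8 and S100a9 was highest at Week 9 (10.3) and lowest at Week 18 (1.03) and Week 12 (1.39). In these bulk samples, fewer cells of a type and less RNA per cell cannot be told apart.

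**Figure D1:**
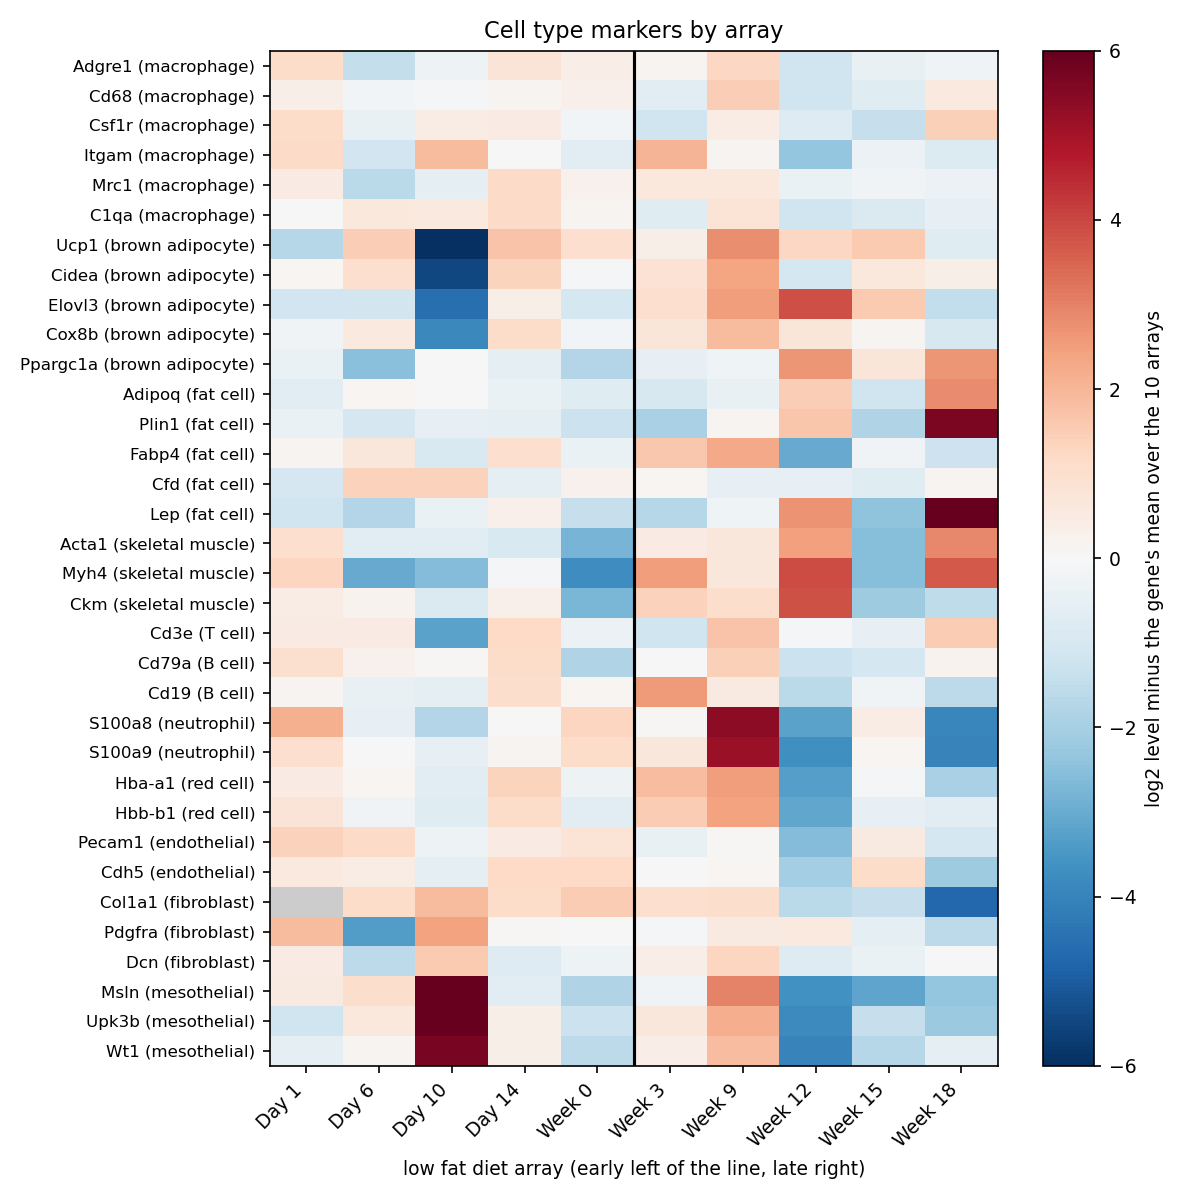
Level of each cell type marker on each LFC array, as log2 level minus the mean of the gene over the 10 arrays (colour, red higher and blue lower, shades saturate at the ends of the scale, grey left out as an outlier spot). The largest departures belong to single arrays, such as Day 10 for lining and brown fat cell genes, Week 9 for S100a8 and S100a9, and Week 12 and Week 18 for fat cell and muscle genes.

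Of 23463 probes of 17132 genes, none passed an adjusted p of 0.05 in limma for late against early, and the smallest adjusted p was 0.824. The percent called was thus 0. Without adjustment 1324 probes (5.64%) had a p under 0.05, of which 536 were higher and 788 lower late. Arrays were simulated with the spread of each probe, drawn independently, and with 200 probes altered. They gave back 76.5% of probes altered 16-fold, 0.5% of those altered 4-fold and 0% of those altered 2-fold. That is a guide to what 5 arrays against 5 could detect in this setting only, as shifts of whole arrays were not simulated. Late levels were all above early levels for 77 genes (0.449% of genes) and all below for 111 genes (0.648%). These genes are called separated here. The difference of the median gene was -0.08. It was 0.20 when arrays were scaled by their median and -0.26 when the 75th percentile was taken over probes detected on all arrays, and the separated genes then numbered 152 higher and 22 lower, or 35 higher and 235 lower. The direction of the whole set therefore hangs on the scaling, and lists are read against the median gene.

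Genes of the cell cycle were the list with the most separated members of the 36, all of them lower on the late arrays. That order did not hold with median scaling or the HFC Day 14 file. There the respiratory chain had 3 and 4 separated higher (0.887% and 0.654% of all genes). The cell cycle list had 2 separated lower in each (0.128% and 0.339% of all genes). Of 40 members tested, each had a lower mean late than early. The median difference of the 40 was -1.30 on the log2 scale, 2.46-fold, beside -0.08 for all genes. The detection filter took no account of group, so a member dim on late arrays could be tested through its early ones. Of the 40, 16 were well above background on all 10 arrays. Their median difference was -1.21, beside 0.01 for all genes detected on all 10 arrays. Late and early arrays were separated for 9 members (Tpx2, Plk1, Kif20a, Cdca8, Tk1, Cdc20, Ccnb1, Cenpe and Prc1), against 0.648% of all genes. An unadjusted p under 0.05 was reached by 23 of 40, against 3.44% of all genes in that direction, and no member passed the adjusted threshold. The other 4 listed genes (Aurkb, Bub1b, Kif11 and Kif2c) were too dim to test.

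Tpx2, which binds the kinase Aurora A and builds the mitotic spindle, had log2 levels of -2.11, -1.76, -1.46, -1.83 and -1.63 on the early arrays from Day 1 to Week 0. On the late arrays from Week 3 to Week 18 it had -2.90, -3.25, -4.43, -3.25 and -3.79. The early levels lay within a narrow band and every late level was below it, with the lowest at Week 12. The difference was -1.76 (SE 0.39), 3.40-fold, and Tpx2 was well above background on 5 early and 3 late arrays. How low a dim gene could read differed by array. Upk3b, well above background at Day 10 alone, was at -3.26 at Week 9 and -9.25 at Week 12. Plk1, the kinase that drives entry into and exit from mitosis, had -1.15, -1.02, 0.07, -1.09 and -1.22 early. Its late levels were -2.23, -2.19, -3.43, -2.86 and -2.88. Day 10 was the highest array and Week 12 the lowest, and the gap between the groups lay between Week 0 and Week 9. The difference of Plk1 was -1.83 (SE 0.41).

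Cdca8, the borealin subunit of the complex that corrects chromosome attachment, was well above background on all 10 arrays. Its early levels were 0.78, 0.38, 1.82, 0.74 and 0.35, and its late levels -0.54, -0.35, -1.57, -1.80 and -0.03. Day 10 stood above the other early arrays. The difference was -1.67 (SE 0.47). Cdc20, which activates the anaphase promoting complex, had early levels of 0.19, 1.58, 2.23, 0.28 and 0.48. Its late levels were -0.38, -0.79, -2.67, -0.47 and -0.50. Week 12 was far below the other late arrays, which lay close together just under the early ones. The difference was -1.92 (SE 0.57). Tk1, the thymidine kinase of dividing cells, had -0.65, 0.19, -0.27, -0.63 and -0.43 early. It had -2.0, -0.71, -3.02, -2.30 and -1.68 late, with Week 9 just below Day 1, the lowest early array. Its difference was -1.58 (SE 0.45).

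Kif20a, a motor protein of the dividing cell's midzone, differed by -1.47 (SE 0.40), and Prc1, which bundles the midzone microtubules, by -1.30 (SE 0.49). Ccnb1, the cyclin of mitosis, differed by -1.23 (SE 0.39) but was well above background on 3 early and 2 late arrays. Cenpe, a motor at the kinetochore, had the largest difference of the list, -2.38 (SE 0.78), to which its level of -5.11 at Week 18 contributed most, and was well above background on 5 early and 3 late arrays. Other members, chosen after their values were seen, differed by less: Pcna, the sliding clamp, by -0.31 (SE 0.36), Mcm4 by -0.40 (SE 0.50), Mcm2 by -0.04 (SE 0.51) and Rrm1 by -0.0048 (SE 0.38). Rrm2, the subunit of ribonucleotide reductase made in dividing cells, differed by -2.06 (SE 0.53), with detection on 5 early and 3 late arrays.

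**Figure D2:**
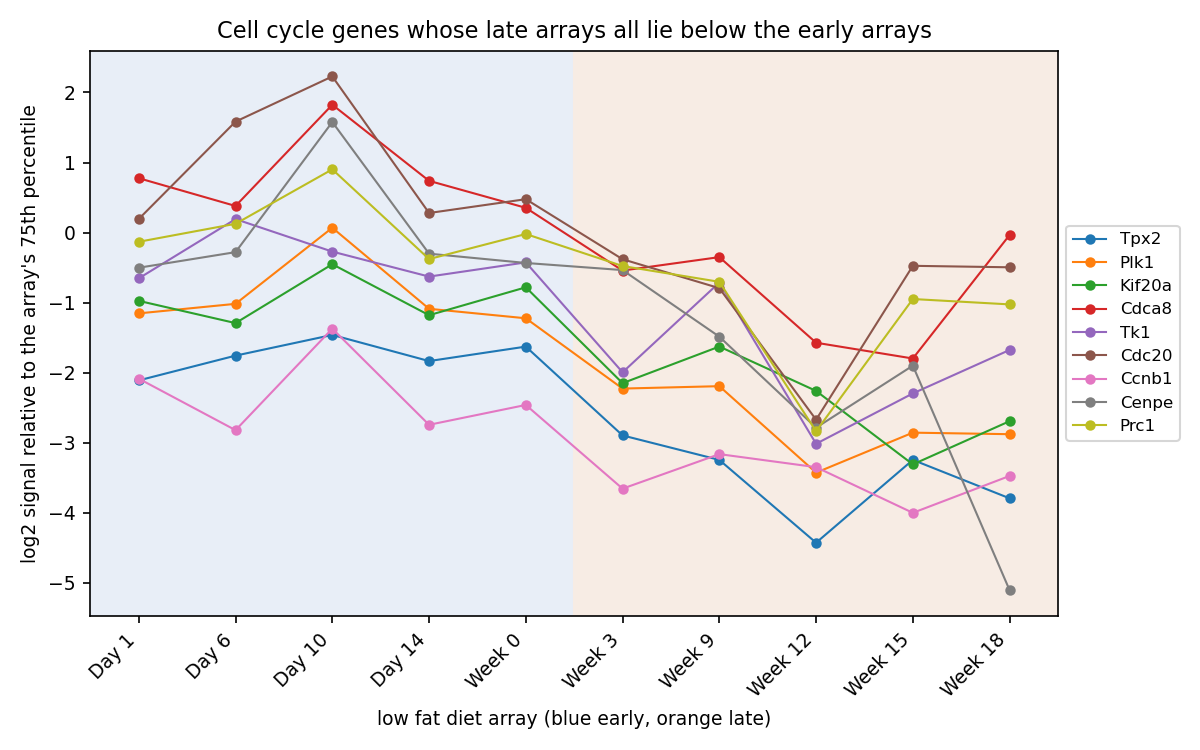
Log2 level of the 9 separated cell cycle genes (lines, 1 point per array) on the LFC arrays in order of time label, early on blue and late on orange ground; the horizontal axis is not to scale in days, and Day 14 and Week 0 are the same day. Each line lies lower on all 5 late arrays than on any early array, and Day 10 is the highest array for most of the genes.

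The cell cycle list also had a lower late median without the arrays that stood apart. Without Week 12 and Week 18 that median was -1.04 and 37 of 40 members were lower. Separated members then numbered 13, against 2.76% of all genes separated lower and 1.88% separated higher in that setting. The 9 named above are among the 13 by construction, as a separated gene stays so when arrays are left out. Without Day 10 as well the median was -0.77, 36 were lower and 14 were separated, where 4.24% of all genes were separated lower and 3.72% higher. The median was -1.38 to -1.05 when any single array was left out. The Week 0 array, scanned among the late arrays, lay above the late mean by a median of 1.08 over the members, against 0.02 over all genes. It is 1 of the early arrays that set the difference, so this is no separate check. The part of scan date was not tested. The number of separated members moved more with the scaling. With median scaling it was 2 (0.128% of all genes lower) at a median of -1.02 beside 0.20 for all genes. With quantile normalization it was 6 (0.747%), and with normexp background correction and quantile normalization together 4 (0.578%) at a median of -0.31. Levels varied less in that last setting, with a median SE over probes of 0.23 against 0.57 in the main fit. With the Day 14 scanner file labelled HFC in place of that labelled LFC, 2 members stayed separated (Ccnb1 and Tpx2, where 0.339% of all genes were separated lower), 39 of 40 were lower and the median was -1.07. In that file Plk1 was at -3.32, against -1.09 in the one labelled LFC. The lower list median was found with either file, and the separation of the other 7 members was not.

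Promoters of mitotic genes are known for short elements that time their use, among them the cell cycle gene homology region with the letters TTTGAA and the box named after its letters CCAAT. Promoters of separated members are shown because these genes differed in the same direction. RefSeq promoter windows (GRCm38.p6, 250 bases before to 50 after the gene start) were found for 31 of 40 tested members. TTTGAA on either strand was in 14 of the 31, 45.2%, and in 18.1% of 27025 promoters of all genes. CCAAT on either strand was in 24 of 31, 77.4%, against 37.9% of all. Of 7 separated members with a window, Cdc20, Cdca8, Plk1 and Prc1 held TTTGAA, and all but Tk1 held CCAAT. Stretches around the gene start follow for the 3 whose match lies nearest to it. Capitals mark the homology region and, on either strand, the box, which reads ATTGG when reversed. At the end of the Cdca8 stretch one of each overlaps the other. A match describes letters and is not a measured binding site.
Cdc20 at chr4:118437319-118437468 on the minus strand: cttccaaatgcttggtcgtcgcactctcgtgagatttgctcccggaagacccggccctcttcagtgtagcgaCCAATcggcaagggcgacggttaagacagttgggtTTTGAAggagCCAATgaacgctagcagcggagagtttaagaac
Cdca8 at chr4:124936893-124937042 on the minus strand: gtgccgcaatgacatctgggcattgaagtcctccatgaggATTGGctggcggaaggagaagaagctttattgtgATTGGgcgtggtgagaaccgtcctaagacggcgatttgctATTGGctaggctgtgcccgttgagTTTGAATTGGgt
Prc1 at chr7:80294326-80294475 on the plus strand: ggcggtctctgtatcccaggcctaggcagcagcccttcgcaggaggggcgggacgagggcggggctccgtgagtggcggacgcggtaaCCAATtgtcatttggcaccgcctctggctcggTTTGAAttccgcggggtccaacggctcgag

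Genes of blood vessels had lower means on the late arrays, most clearly Aplnr. Aplnr, the receptor of the peptide apelin on growing vessels, had early log2 levels of 2.21, 3.41, 0.92, 2.66 and 2.73. Its late levels were 0.60, -0.09, -1.43, 0.49 and 0.13. Day 10, the lowest early array, and Week 3, the highest late one, were the closest. The difference was -2.45 (SE 0.55), 5.46-fold, and -2.06 without Week 12 and Week 18. On the HFC arrays the difference was -2.58 (SE 0.51), also with no overlap. Efna1, a membrane-bound ligand of Eph receptors, had 1.5, 2.64, 0.53, 1.45 and 1.18 early and -0.47, -0.05, -2.55, 0.35 and -1.54 late. Week 12 and Week 18 were the lowest, and the difference of -2.31 (SE 0.60) became -1.52 without them.

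The 20 tested endothelial genes all had a lower late mean, at a median of -1.11. Aplnr was the separated member, where 0.648% of all genes were separated lower. Pecam1, a junction protein of vessel lining, differed by -1.40 (SE 0.60), and Cdh5, the cadherin of that lining, by -1.15 (SE 0.66). The levels of the list were low at Week 12 (-2.10) and Week 18 (-1.19), each gene taken relative to its mean, and high at Day 6 (1.32) and Week 15 (1.04). Without Week 12 and Week 18 the median was -0.25.

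Collagen genes had lower late means, with more scatter. Of 21 collagen chains 19 had a lower late mean, at a median of -0.91. It was -0.46 without Week 12 and Week 18 and -0.06 without Day 10 as well. Col4a2 and Col1a1 were separated, where 0.648% of all genes were separated lower. Quantile normalization also gave 2 chains separated lower (0.747% of all genes). Keeping outlier spots gave 1 (0.636%), and so did the HFC Day 14 file (0.339%). Median scaling gave 0 (0.128%), as did normexp correction with quantile normalization (0.578%). Col4a2, a chain of the basement membrane collagen, had 3.47, 5.48, 3.59, 3.47 and 4.34 early and 2.02, 3.05, 2.06, 3.25 and 3.37 late. The gap between the groups was narrow, and the difference was -1.32 (SE 0.50), beside -2.08 (SE 0.44) on the HFC arrays, where the groups did not overlap either. Col1a1, a chain of the main fibre collagen, differed by -2.52 (SE 1.03), with its Day 1 spot left out as an outlier. Its level of -0.18 at Week 18 was the lowest, and without Week 12 and Week 18 the difference was -1.16. Pxdn, peroxidasin, which links collagen of basement membranes, was separated at -1.40 (SE 0.42). Mmp11, a protease of remodelling stroma, was at -1.61 (SE 0.44) and was the separated member of the matrix turnover list, in which 8 of 24 had a higher late mean and the median of -0.49 turned to 0.39 without Week 12 and Week 18. Ppic, a cyclophilin that helps proteins fold on the secretory path, had early levels of 3.77 to 4.96 and late levels of 1.96 to 3.67, a difference of -1.42 (SE 0.43).

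Homeobox genes of the Hox clusters, which mark position along the body, were lower for 17 of 19 tested members at a median of -0.71, and -0.63 without Week 12 and Week 18. Hoxd9 and Hoxb7 were separated, where 0.648% of all genes were separated lower. Median scaling left 0 members separated (0.128% of all genes lower), and quantile normalization 1 (0.747%). The HFC Day 14 file left 1 (0.339%). Hoxb7 had 1.40, 0.95, 2.01, 0.91 and 0.87 early and 0.17, -0.18, -1.0, 0.25 and -1.55 late, a difference of -1.69 (SE 0.46). On the HFC arrays that of Hoxb7 was 0.02 (SE 0.43). Hoxb6 was above background throughout and differed by -1.76 (SE 0.51), but its Week 15 level of 0.92 lay among the early ones. Hoxd9 differed by -1.86 (SE 0.47), at levels of -4.80 to -0.98, well above background on 4 early and 3 late arrays. Under normexp correction with quantile normalization the list median was -0.12, beside -0.01 for all genes. There 3 members were separated lower, where 0.578% of all genes were. Levels varied less in that setting, with a median SE over probes of 0.23 against 0.57.

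The other genes with the smallest p among those lower late were of varied kinds. Tmem229b, a membrane protein, had 2.25, 3.59, 3.23, 2.15 and 2.38 early and 1.30, 1.38, -1.0, 1.54 and 0.28 late, a difference of -2.02 (SE 0.55), and it was separated on the HFC arrays too. Gnb4, a beta subunit of heterotrimeric G proteins, was separated at -1.52 (SE 0.44). Lurap1l at -1.56 (SE 0.44) and Odf3b at -2.01 (SE 0.57) overlapped at 1 late array each, Week 18 for Lurap1l and Week 15 for Odf3b. Genes of growth hormone and insulin-like growth factors had a list median of -0.72, or -0.18 without Week 12 and Week 18. The list had no separated member, where 0.648% of all genes were separated lower. Mest, an imprinted gene active in expanding fat tissue, had 0.65 to 1.65 early and was lower at Week 3 to Week 15, but at 1.80 was highest of all at Week 18. Its difference was -1.94 (SE 0.67). Igfbp3, a carrier of insulin-like growth factors, differed by -2.31 (SE 0.77), and by -1.12 without Week 12 and Week 18.

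Genes for heat production and fuel burning had higher means on the late arrays, with scatter that left the groups overlapping. Of 22 tested genes of brown fat cell thermogenesis 21 had a higher late mean, at a median of 1.60, and none was separated, where 0.449% of all genes were. At an unadjusted p under 0.05 there were 7, against 2.35% of all genes in that direction. Ucp1 had 2.83, 6.02, -3.16, 6.23 and 5.54 early and 4.88, 7.33, 5.80, 6.11 and 3.83 late. Apart from the low Day 10 and Day 1 arrays the groups covered the same range, and the difference was 2.10 (SE 1.56). Elovl3, a fatty acid elongase typical of active brown fat, had -2.29, -2.24, -5.69, -0.79 and -2.23 early and -0.16, 1.37, 2.69, 0.43 and -2.65 late. The late arrays were all above the early ones except Week 18, and the difference was 2.98 (SE 1.03). Dio2, which makes active thyroid hormone, differed by 2.57 (SE 0.89), and Ppargc1a, a coactivator of mitochondrial genes, by 2.09 (SE 0.74). The list median was 0.92 without Day 10, 0.77 without Week 12 and Week 18, and 0.40 without all of these arrays.

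Fabp3, the fatty acid carrier of muscle and of active brown fat, had the smallest p of the genes higher late. Its levels were 2.24, 2.91, 0.58, 3.26 and 1.70 early and 3.89, 4.63, 5.53, 3.85 and 7.40 late. All late levels were above the early ones, and Week 18 was far above the rest. The difference was 2.92 (SE 0.73), 7.59-fold, and 1.99 without Week 12 and Week 18, beside 0.73 (SE 0.95) on the HFC arrays. Genes of fatty acid oxidation had a higher late mean in 23 of 24 at a median of 1.23. The exception was Cpt1a, which brings fatty acids into mitochondria, at -0.81 (SE 0.41). Without Week 12 and Week 18 the list median was 0.22, and without Day 10 as well it was 0.01. Subunits of the respiratory chain were higher for 44 of 48 at a median of 0.66, 0.40 without both arrays and 0.28 without Day 10 as well. None was separated, against 3 with median scaling (0.887% of all genes separated higher) and 4 with the HFC Day 14 file (0.654%). Ndufs6, a subunit of complex I, had 3.46, 3.70, 3.44, 4.62 and 3.77 early and 4.64, 5.71, 5.53, 4.57 and 6.37 late. The Day 14 array stood above the other early ones and just above Week 15. Its difference was 1.56 (SE 0.45).

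**Figure D3:**
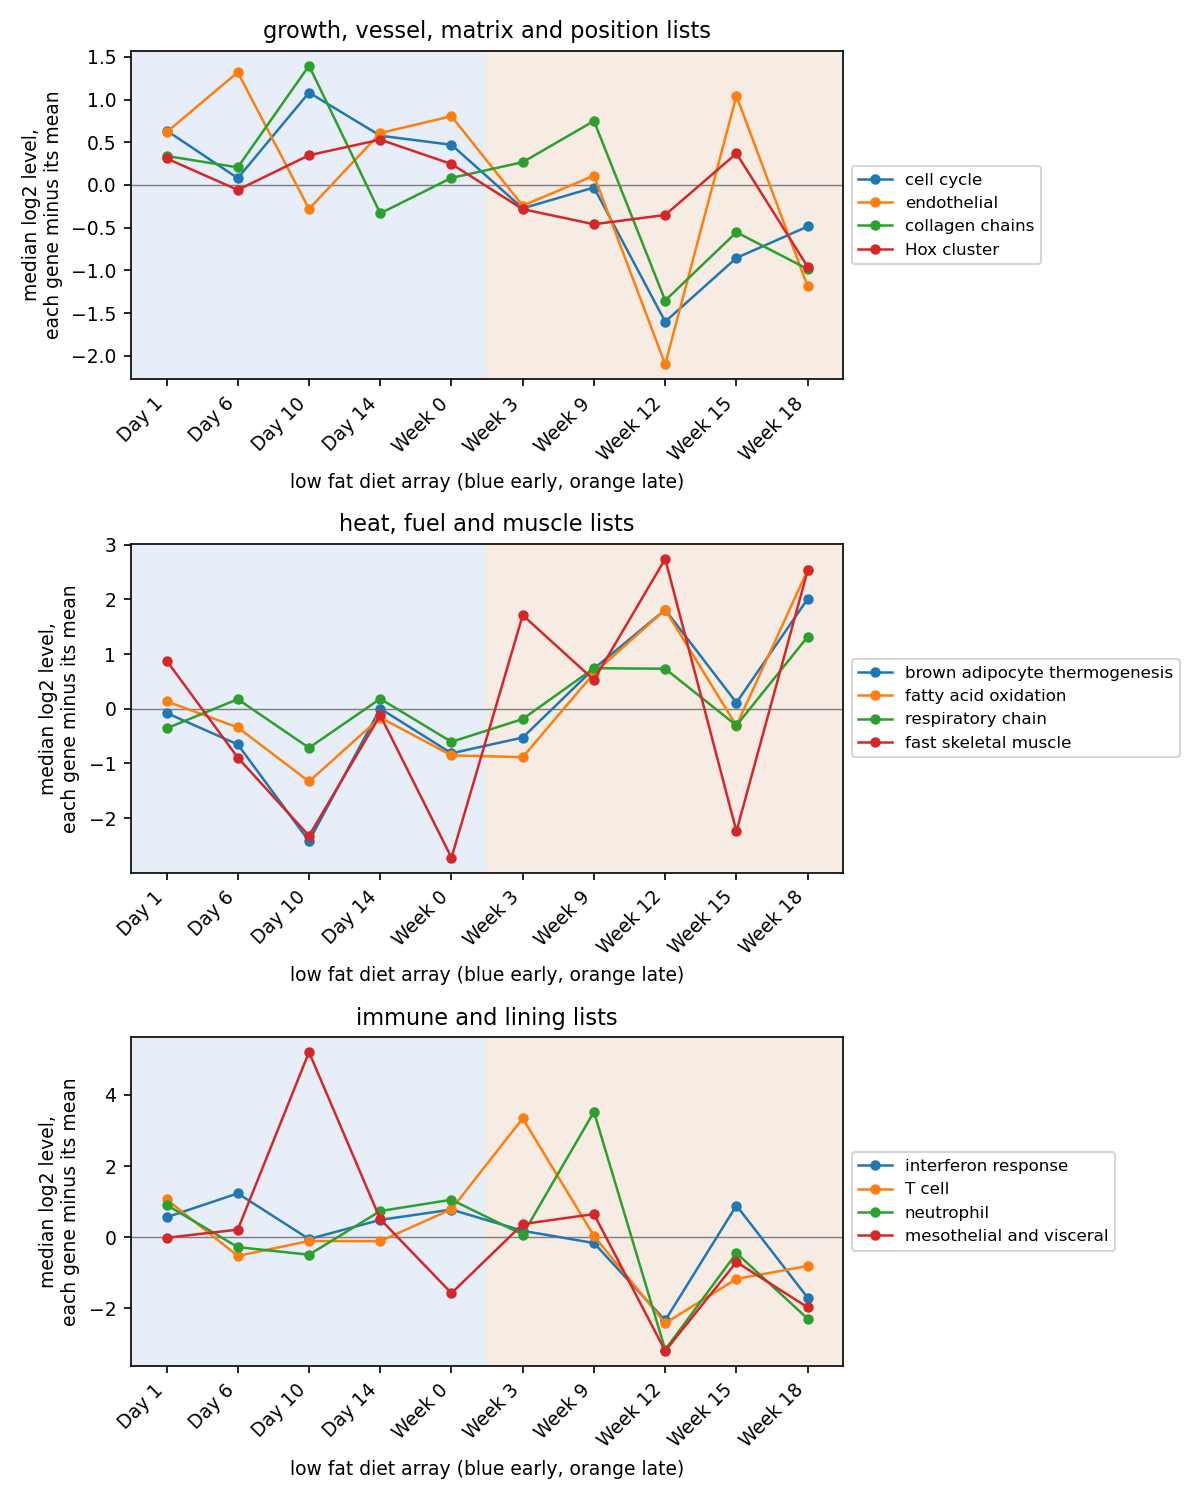
Level of 12 gene lists on each LFC array, as the median over members of the log2 level minus the mean of each gene, in order of time label (not to scale in days), early on blue and late on orange ground. The cell cycle list lies between 0.08 and 1.08 on the early arrays and between -1.60 and -0.03 on the late ones, while the other lists swing with single arrays such as Day 10, Week 3, Week 9, Week 12 and Week 18.

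Genes of fast skeletal muscle had the highest list median, 2.19 over 22 tested, with 20 higher late. None was separated, where 0.449% of all genes were separated higher. The median was 1.1 without Week 12 and Week 18 and 0.90 without Day 10 as well. The list was high at Week 12 (2.74), Week 18 (2.53) and Week 3 (1.71) and low at Week 0 (-2.72), Day 10 (-2.32) and Week 15 (-2.24), each gene relative to its mean. Myh2, a myosin of fast fibres, had 2.04, -0.26, -1.61, -0.40 and -1.54 early and 3.38, 1.25, 5.56, -0.61 and 5.49 late. Its Week 15 level lay among the early ones, and the difference was 3.37 (SE 1.17). The log2 of the summed signals of the muscle markers Acta1, Myh4 and Ckm ranged from 0.61 to 4.66 early and from 1.06 to 6.69 late. Gys2, a glycogen synthase, differed by 3.03 (SE 0.89) and Cib2, a calcium binding protein, by 2.45 (SE 0.66), both highest at Week 12 and Week 18. Synpo2, an actin binding protein of muscle, was at 1.94 (SE 0.55). Amy1, an amylase whose near copies may share the probe, was separated at 2.14 (SE 0.64), with Week 12 at 5.35 and Week 18 at 5.32. The part of muscle RNA in these differences was not tested.

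Several other genes were higher late with or without Week 12 and Week 18. Igh, a probe of the immunoglobulin heavy chain locus whose many segments can share sequence, had 3.32, -0.03, 2.71, 0.84 and 3.49 early and 3.58, 6.99, 5.59, 3.75 and 6.02 late. The closest arrays were Week 0 and Week 3. The difference was 3.12 (SE 0.85), 8.69-fold, and 2.71 without Week 12 and Week 18, beside 2.92 (SE 1.01) on the HFC arrays. The B cell list had a median of -0.04 over 10 genes, or 0.72 without Week 12 and Week 18, and was highest at Week 3 (3.34). Its member Jchain, which joins antibody chains, differed by 2.95 (SE 0.91) and overlapped on the LFC arrays, and on the HFC arrays it was separated at 3.85 (SE 0.97). Gdf5, a bone morphogenetic protein, had -3.00, -2.87, -1.20, -0.80 and -2.27 early and 0.80, -0.50, -0.41, -0.70 and 0.37 late. All late levels were above the early ones, Week 15 by the least, and the difference was 1.94 (SE 0.53), or 2.11 (SE 0.66) on the HFC arrays. Thoc7, a subunit of the complex that readies messenger RNA for export, had 0.32, -0.56, 0.35, 1.17 and 1.09 early and 2.55, 1.94, 2.53, 1.61 and 2.20 late. Every late level was above every early one, Day 14 and Week 15 being the closest, and the difference was 1.69 (SE 0.43), beside 0.31 (SE 0.37) on the HFC arrays.

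Hspe1, the small chaperone of the mitochondrial matrix, was the separated member of the heat shock list, where 0.449% of all genes were separated higher. Its levels were 2.61, 1.81, 2.63, 3.23 and 3.57 early and 3.69, 4.13, 5.00, 5.20 and 3.92 late, a difference of 1.62 (SE 0.47). Its partner Hspd1 differed by 1.40 (SE 0.50). Of 19 heat shock genes 15 had a higher late mean at a median of 0.47, and 0.84 without Week 12 and Week 18, while Hspa1a, the classic inducible chaperone, was at -1.95 (SE 1.44). Ttc1 at 1.65 (SE 0.42) overlapped by the Day 10 and Week 15 arrays. Svip, a small regulator of protein disposal at the endoplasmic reticulum, was separated at 1.51 (SE 0.44).

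Macrophage genes, the cells named in the labels, showed no separated member among 24, where 0.648% of all genes were separated lower and 0.449% higher. The list median was -0.51, with 20 of 24 lower late, and turned to 0.13 without Week 12 and Week 18. Adgre1, a surface receptor of mature macrophages, differed by -0.21 (SE 0.58), Cd68 by -0.22 (SE 0.52) and Mrc1 by 0.12 (SE 0.53). Cx3cr1, the fractalkine receptor of resident macrophages, differed by -1.30 (SE 0.49), but was well above background on 4 early and 2 late arrays only. C1qa, a complement subunit made by macrophages, differed by -1.0 (SE 0.45).

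The interferon, immediate early and inflammatory cytokine lists were lowest at Week 12 and Week 18. Of 30 interferon response genes 29 had a lower late mean at a median of -1.21. None was separated, where 0.648% of all genes were separated lower. An unadjusted limma p under 0.05 was reached by 7, against 3.44% of all genes in that direction. Relative to the mean of each gene the list was at -2.33 at Week 12 and -1.70 at Week 18, and at 0.89 at Week 15. Without both arrays the median was -0.20, and without all arrays titled BA or BAT it was -0.05. Rsad2, the antiviral enzyme viperin, had 4.51, 4.25, 1.60, 3.80 and 4.30 early and 2.13, 2.01, -1.05, 3.11 and -0.45 late. Day 10 was as low as the late arrays, and the difference was -2.54 (SE 0.85). The immediate early list (-1.10) and the inflammatory cytokine list (-1.20) had medians of the opposite sign without Week 12 and Week 18, at 0.48 and 0.57. In the immediate early list Ier2 was separated at -2.37 (SE 0.84), with its Day 1 spot left out. T cell genes were high at Week 3 (3.34) and neutrophil genes at Week 9 (3.52), relative to the mean of each gene, and their list medians of -0.44 and -0.69 turned to 0.68 and 0.73 without Week 12 and Week 18.

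The ribosomal, clock and ER stress lists lay near the median gene over the 10 arrays. None of their members was separated, where 0.449% of all genes were separated higher and 0.648% lower. Cytosolic ribosomal proteins had a median of -0.12 over 40 genes, with 11 higher late and none separated. Without Week 12 and Week 18 that median was 0.45 with 2 separated higher, where 1.88% of all genes were. Without Day 10 as well it was 0.50 with 6 separated higher, where 3.72% of all genes were. The circadian clock list, whose members peak at different hours, had a median of 0.02 over 20 genes, with 10 higher and 10 lower, from -0.82 (Cry2) to 1.12, and none was separated. ER stress genes had a median of -0.06 over 24. Sterol synthesis had 0.30 over 24, which turned to -0.30 without Week 12 and Week 18. In the lipogenesis list, with a median of 0.59, Fads1, a desaturase of polyunsaturated fatty acids, was separated in the other direction at -1.07 (SE 0.39).

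**Figure D4:**
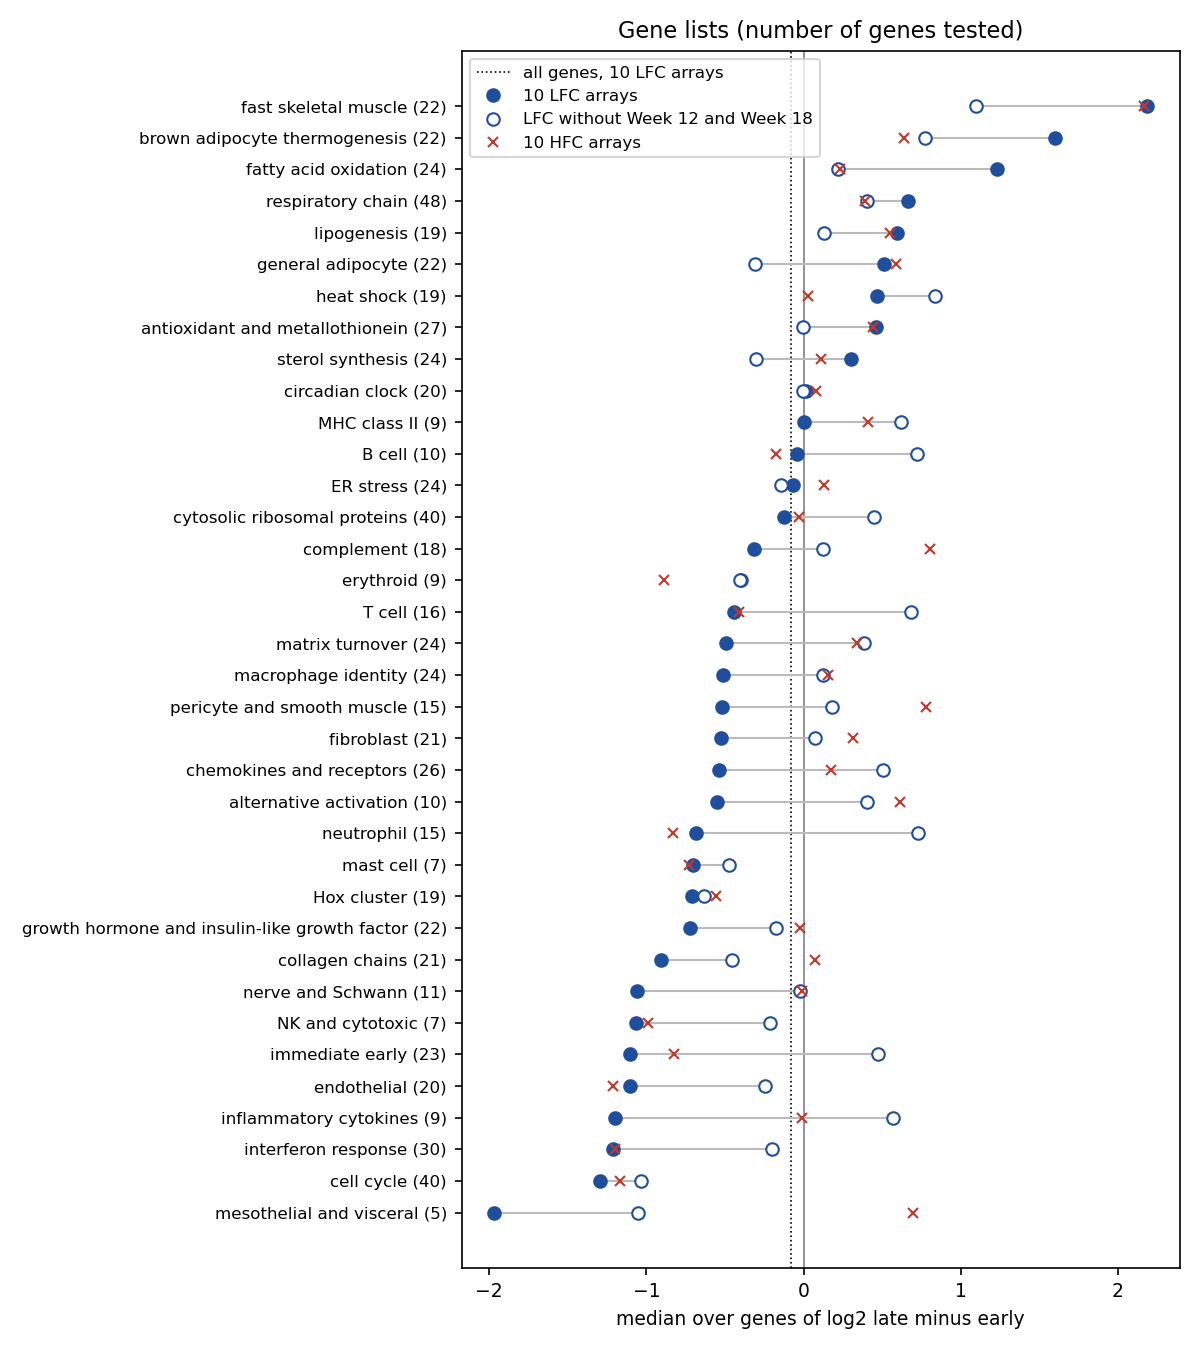
Median over genes of the log2 difference late minus early for 36 gene lists, with the number of genes tested in parentheses, for the 10 LFC arrays (filled), for LFC without Week 12 and Week 18 (open) and for the 10 HFC arrays (crosses), and for all genes (dotted line). The cell cycle list is at -1.30, -1.04 and -1.17, while most immune lists move toward or past 0 when both arrays are left out.

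The HFC arrays gave the same comparison in other mice, with a similar order of scanning. On them 314 genes (1.83%) were separated higher late and 491 (2.87%) lower. Of the 111 genes separated lower on the LFC arrays 14 were separated lower on the HFC arrays, 12.6% of the first list and 2.85% of the second. Of the 77 separated higher 7 were shared, 9.09% of the first and 2.23% of the second. None was separated in the opposite direction. Over the 111 genes the median HFC difference was -0.80, and over the 77 it was 0.48, beside -0.02 for all genes. The lower genes shared by both diets included Aplnr, Col4a2, Tmem229b, the protease Adamts17 and Ncaph, a subunit of condensin. The cell cycle list had an HFC median of -1.17, with 40 of 40 lower late and 3 separated (Nusap1, Mcm3 and Cdc6), none of which was among the 9 of the LFC arrays. The interferon list had an HFC median of -1.20 with 10 of 30 separated lower, and the endothelial list -1.21 with 4 of 20 (Aplnr, Cdh5, Kdr and Erg). The brown fat cell list had 0.64 with 1 separated higher, the fast muscle list 2.17 with 2 higher and the collagen list 0.07 with 2 lower.

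The difference between the diets in the change with time was tested directly. Of 29800 probes none passed an adjusted p of 0.05 in limma (0 percent called), the smallest adjusted p was 1.00, and 475 had an unadjusted p under 0.05. For Fabp3 the LFC change exceeded that on HFC by 2.19 (SE 1.34), and for Plk1 the LFC change minus the HFC change was -0.96 (SE 0.71).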

How the data were processed

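RNA of brown fat stromal vascular cells was hybridised by the authors to 1-colour Agilent arrays, 1 per diet and time label, and the scanner files were deposited. Per the file headers, the processed green intensity of each spot came from Feature Extraction 10.5.1.1, with background subtracted, while the submitters' notes name version 9.1. The deposited series table holds log2 values normalized by the authors, relative to the LFC array of the same time label (at Day 14, to the array labelled HFC), so it cannot give the change within LFC and was used only for the difference between diets. No column was left unassigned (0).

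Control and outlier spots were dropped, spots of a probe averaged, and log2 intensity taken minus the 75th percentile of the array. Probes that the scanner software marked as detected on 5 or more LFC arrays were tested with limma 3.58.1 (lmFit and eBayes, R 4.3.3) and Benjamini-Hochberg adjustment at 0.05, over the 10 LFC arrays. The difference between diets was an interaction over 20 arrays, with probes detected on at least 5 of them. A gene was represented by its brightest probe. Of 40628 probes, 28128 were named by accession, 5159 by gene number and 847 by symbol through RefSeq, and 6494 keep the file's name. Named genes were the 12 of smallest p in each direction that were detected on all 10 arrays (none passed the adjusted threshold), up to 4 separated members of each of 36 lists or else the 2 of smallest p, and cell type markers. Other members named in the text were chosen after their values were seen. The gene lists and the comparison itself were chosen with earlier results of these data known. List and marker values were computed with Python 3.11.15, pandas 2.3.3 and numpy 2.4.6, and statmod 1.5.0 served the scan date block. The fit was tested on simulated data.

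The labels do not say that arrays are of separate animals, so p-values measure the spread between arrays, which differ in time within a group. The number of arrays limits the precision. Alternatives were the scaling and background method, the filter, the array and title terms, each array left out, and, chosen after seeing the data, an exchanged Day 14 file and the arrays that stood apart left out.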

Additional observations from a re-analysis of the deposited data

Results flagged for a closer look

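Among 124 groups of 5 arrays examined, 8 held 1 array far from the others, where chance gives about 5%, or 1 in 20. The Day 14 array had Ndufs6 at 4.62 (median of the other early arrays 3.58) and Amy1 at 2.10 (1.45). The Day 10 array had Cdca8 at 1.82 (0.56), the antioxidant and metallothionein list at 0.54 (-0.26) and the complement list at 1.26 (-0.20). The Day 6 array had the general fat cell list at 0.17 (-0.41). The Week 12 array had Cdc20 at -2.67 (-0.49) and a 75th percentile of 1289 intensity units (124). List values are medians over genes relative to each gene's mean, and gene values are log2 levels. What set these arrays apart was not tested.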

How the results depend on the processing

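No probe passed the adjusted threshold under any alternative run, for LFC late against early or for the difference between diets. All 1007 alternative values of 35 named genes kept their direction. These genes were chosen by small p or separation in the same data, so a reversal was unlikely. Some alternatives leave the difference itself unchanged. Counts of separated genes moved with the scaling: 152 higher and 22 lower with median scaling, 35 and 235 with the 75th percentile over probes detected on all arrays, and 38 and 99 with normexp and quantile normalization. With probes detected on all 10 arrays 65 were higher and 43 lower. With fewer arrays the counts rise by construction: 493 and 580 without the BA and BAT titles, 164 and 187 with Day 14 and Week 0 averaged, 322 and 472 without Week 12 and Week 18, 637 and 726 without Day 10 too, and 95 to 209 higher and 147 to 310 lower with each array left out in turn. With the HFC Day 14 file 112 were higher and 58 lower. Of 36 lists 25 had a median below 0, against 13 with array weights, 15 without the titled arrays, 16 without Week 12 and Week 18 and 13 without Day 10 too; 13 lists kept their sign in every alternative, and the causes were not tested. No paired analysis was possible because the late and early LFC arrays have no shared number that marks an animal or batch. For the difference between diets, a replicate block by time point gave 0 calls and 849 probes at an unadjusted p under 0.05. Dim probes and 5 arrays a group limit what could be detected.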

Other observations

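The genes described next were not separated and did not pass the adjusted threshold in limma. Alas2, which starts heme synthesis in red cells, had 4.85 to 6.06 on the early arrays and -0.66 at Week 12, 1.33 at Week 18 and 4.10 to 5.56 on the other late arrays, a difference of -2.36 (SE 1.05), or -0.51 without Week 12 and Week 18. Hmox1, heme oxygenase, differed by -1.89 (SE 0.82), with its lowest level of -2.20 at Week 3, and by -2.44 (SE 0.81) on the HFC arrays. The chemokine Cxcl14 differed by 1.61 (SE 0.72), beside 1.95 (SE 0.69) on the HFC arrays, against its list, in which 20 of 26 had a lower late mean at a median of -0.54, or 0.51 without Week 12 and Week 18.

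The arrays of Day 14 and Week 0, taken as the same day on the diet, differed by a median of 0.549 on the log2 scale over genes in either direction, and 26.9% of genes differed by 2-fold or more. The median size of the late minus early difference was 0.460.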
